A study of Mus musculus with 16 samples.

Results

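Circadian clock and clock output genes were followed in the unlesioned mouse neocortex across 4 control ages and after hemisuction of the opposite cortex. The set held 10 genes, which were Per1, Per2, Per3, Arntl, Npas2, Cry1, Dbp, Tef, Nr1d1 and Nr1d2, out of 20145 genes that could be named on the array. Each was found through the transcript identifier of its probe, and where a gene had more than 1 probe the one with the highest mean signal stood for it. Dbp had 2 probes and each other member had 1. All 10 were well above background on all 16 arrays, no member spot was saturated or flagged as an outlier, and all 10 therefore entered every comparison.

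The mammalian clock is a feedback loop in which ARNTL (BMAL1), paired with CLOCK or its relative NPAS2, binds E-box elements and activates the Per and Cry genes. PER and CRY proteins return to the nucleus and repress that activation, and a new cycle starts once they are degraded. A second loop runs through NR1D1 and NR1D2 (REV-ERB alpha and beta), which repress Arntl and Npas2 at ROR elements, while DBP and TEF carry the rhythm to output genes through D-box elements. In a mouse kept in light and dark, transcripts of Per, Dbp, Tef and Nr1d genes peak at a different part of the day from Arntl and Npas2, and Per1 and Per2 are in addition induced by neuronal activity and by glucocorticoids.

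All samples were total RNA of right neocortex rostral to bregma from C57BL/6J mice, pooled from several animals, so that each condition was 1 pool. Control pools came from mice of postnatal day 7 (P7), P14, P35 and 10 weeks. Neonatal hemisuction (NBH) was done at P7 with tissue taken 1 week (age 14 days) and 4 weeks (age 35 days) later, and adult hemisuction (ABH) pools were taken 1 week and 4 weeks after surgery at ages of 11 and 15 weeks. Each pool was hybridised once with Cy3 on one chip and once with Cy5 on a second chip, so the spread between dyes is technical and no p-value could be computed.

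NBH pools were set against the control of their age, P14 or P35. Surgery comparisons are listed below in a fixed order, NBH at 1 and 4 weeks and then ABH at 1 and 4 weeks. Both ABH pools were set against the 10 week control, which they shared, and both were older than it. Lights came on at 8 in the morning in a cycle of 12 hours of light and 12 hours of dark, and the time of day at which tissue was taken was not given in the sources used here. Time of collection and surgery, and in ABH age as well, therefore cannot be told apart for any clock gene below. Control pools lay in row 1 and surgery pools in row 2 of each chip, so chip row and surgery cannot be told apart either. Levels are log2 background-corrected signal minus the array's 75th percentile, which allows the same gene to be compared between pools but not 1 gene with another. A gene was called higher at 1.5-fold or more with both dyes and lower at 0.75-fold or less with both dyes.

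Across the arrays 60.2% to 72.2% of gene spots were well above background and 0.988% to 2.05% were saturated. The cortical markers Slc17a7, Tbr1, Neurod6 and Fezf2 were well above background in all 8 pools. Markers of other tissue differed between pools. Of 5 choroid plexus markers 5, 3, 0 and 5 were called higher against control in the fixed order of comparisons. Ttr, made in choroid plexus, lay at 5.22 and 4.10 in the NBH pools and at 4.81 in ABH 4 weeks, and between -1.32 and 0.56 in the other 5 pools. All 4 striatal markers were below 0 with both dyes in NBH 4 weeks against control P35 (median -0.50) and above 0 in ABH 4 weeks against control 10 weeks (median 0.58). One of them, Ppp1r1b, was saturated on both control P35 arrays, and without it the medians were -0.51 and 0.71. In ABH 1 week 2 of 4 microglial, 1 of 4 astrocyte, 2 of 4 meningeal and 2 of 2 blood markers were called higher, beside 10.5% of all genes called in either direction. The blood marker Hba-a1 was saturated on both ABH 1 week arrays. Oxt, a hypothalamic peptide gene, stood at 1.65 in control P35 against -2.68 to -1.05 elsewhere. In these bulk pools fewer cells of a type and less RNA per cell cannot be told apart, and the part of tissue makeup in the values below was not tested.

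The 300 bases around each annotated start site (250 before and 50 after, from RefSeq on GRCm38.p6) were searched on both strands for the elements through which clock proteins act. These were the E-box CACGTG, the variant E-prime box CACGTT, the D-box TTATGTAA or TTACGTAA, the cyclic AMP element TGACGTCA and the ROR element known as RORE. None of these overlapped another in the members' windows. No window of Per2 was used here. The other 9 members had 12 windows, and 7 of these, from 6 members, held a match. Promoters of 4 members are printed because they show the 3 kinds of element of the loop. Letters in capitals are the matches, and the E-prime box of Cry1 lies on the opposite strand and so appears as its reverse complement.
Per1 (chr11:69098699-69098998, plus strand): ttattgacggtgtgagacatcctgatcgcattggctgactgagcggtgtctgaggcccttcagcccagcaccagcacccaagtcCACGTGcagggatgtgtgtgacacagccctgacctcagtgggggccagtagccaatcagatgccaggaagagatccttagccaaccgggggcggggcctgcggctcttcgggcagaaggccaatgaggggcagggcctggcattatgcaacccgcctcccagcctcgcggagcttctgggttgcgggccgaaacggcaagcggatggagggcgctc
Per3 (chr4:151044616-151044915, minus strand): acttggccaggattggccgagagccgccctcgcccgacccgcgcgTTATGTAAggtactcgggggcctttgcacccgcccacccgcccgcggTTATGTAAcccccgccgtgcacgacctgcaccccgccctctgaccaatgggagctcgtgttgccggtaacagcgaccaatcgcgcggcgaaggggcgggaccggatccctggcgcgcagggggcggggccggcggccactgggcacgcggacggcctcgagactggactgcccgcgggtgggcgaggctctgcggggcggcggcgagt
Cry1 (chr10:85185005-85185304, minus strand): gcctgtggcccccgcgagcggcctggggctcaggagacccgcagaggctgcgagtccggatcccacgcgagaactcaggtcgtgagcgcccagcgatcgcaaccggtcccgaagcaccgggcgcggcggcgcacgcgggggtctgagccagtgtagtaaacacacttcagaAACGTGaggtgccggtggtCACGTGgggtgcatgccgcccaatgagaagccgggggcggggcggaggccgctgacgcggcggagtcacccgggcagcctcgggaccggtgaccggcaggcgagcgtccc
Arntl (chr7:113207261-113207560, plus strand): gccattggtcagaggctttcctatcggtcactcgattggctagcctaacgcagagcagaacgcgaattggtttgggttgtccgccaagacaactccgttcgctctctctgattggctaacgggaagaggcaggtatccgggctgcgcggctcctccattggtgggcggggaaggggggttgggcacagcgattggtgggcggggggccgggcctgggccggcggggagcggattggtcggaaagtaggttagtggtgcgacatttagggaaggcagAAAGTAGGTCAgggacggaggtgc

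The Per1 window held 1 E-box beginning 166 bases before the start site, and each of the 2 Tef windows also held 1. Cry1 had an E-box 60 bases and an E-prime box 79 bases before its start, and Nr1d1 had an E-prime box at 28 bases. Per3 held 2 D-boxes, beginning 205 and 158 bases before the start. Arntl was the member with a RORE, in the first transcribed bases of this window. Among all 32851 windows of the same length 7.15% held an E-box, 4.68% an E-prime box, 1.06% a D-box, 0.384% a RORE and 1.79% a cyclic AMP element, the last of which was in no member window. Dbp, Npas2 and Nr1d2 had no match in their windows, nor did a second window of Per1 and of Arntl. A match is a run of letters and not evidence of binding.

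The widest differences among the clock genes lay between control pools of different age. Age and time of collection cannot be told apart in these steps. From P7 to P14, 4 of 10 members were called higher and 0 lower, beside 8.47% of 15476 genes called higher and 14.9% called lower. The 4 were the repressor genes Per1 (log2 difference 0.87, SD of dyes 0.06) and Per2 (1.08, SD 0.08) and the output genes Dbp (1.07, SD 0.06) and Tef (0.82, SD 0.07). These correspond to 1.83-fold, 2.12-fold, 2.11-fold and 1.77-fold. The second Dbp probe gave 1.36 and was called higher as well.

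The remaining members of the negative limb and output group lay above 0 with both dyes from P7 to P14 without reaching the limit. Per3 differed by 0.69, with 0.54 in Cy3 just short of the limit of 0.585 and 0.84 in Cy5 past it, Nr1d1 by 0.48 and Nr1d2 by 0.34. The activator genes differed, since Npas2 was higher by 0.42 and Arntl stood at -0.13. Cry1, a repressor like the Per genes, stood at -0.23. All 7 Per, Dbp, Tef and Nr1d genes were thus above 0 with both dyes, along with 1 of the 2 activators, and 42.9% of all genes did the same. The median of all genes in this step was -0.02.

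Other lists differed between these 2 pools as well. Of 12 immediate early genes, which respond to stimuli that also act on Per1 and Per2, 11 were called higher at P14 (median 1.65), among them Arc (3.55) and Fos (2.51). Markers called higher were 4 of 4 striatal, 3 of 4 oligodendrocyte, 3 of 4 interneuron and 3 of 4 microglial genes, with medians of 1.02, 1.76, 1.08 and 0.78 over the 3 genes of each list that no array saturated. Of 5 cortical glutamatergic markers 1 was called higher and 3 lower (median -0.72). The part of these in the members' differences was not tested.

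**Figure D1:**
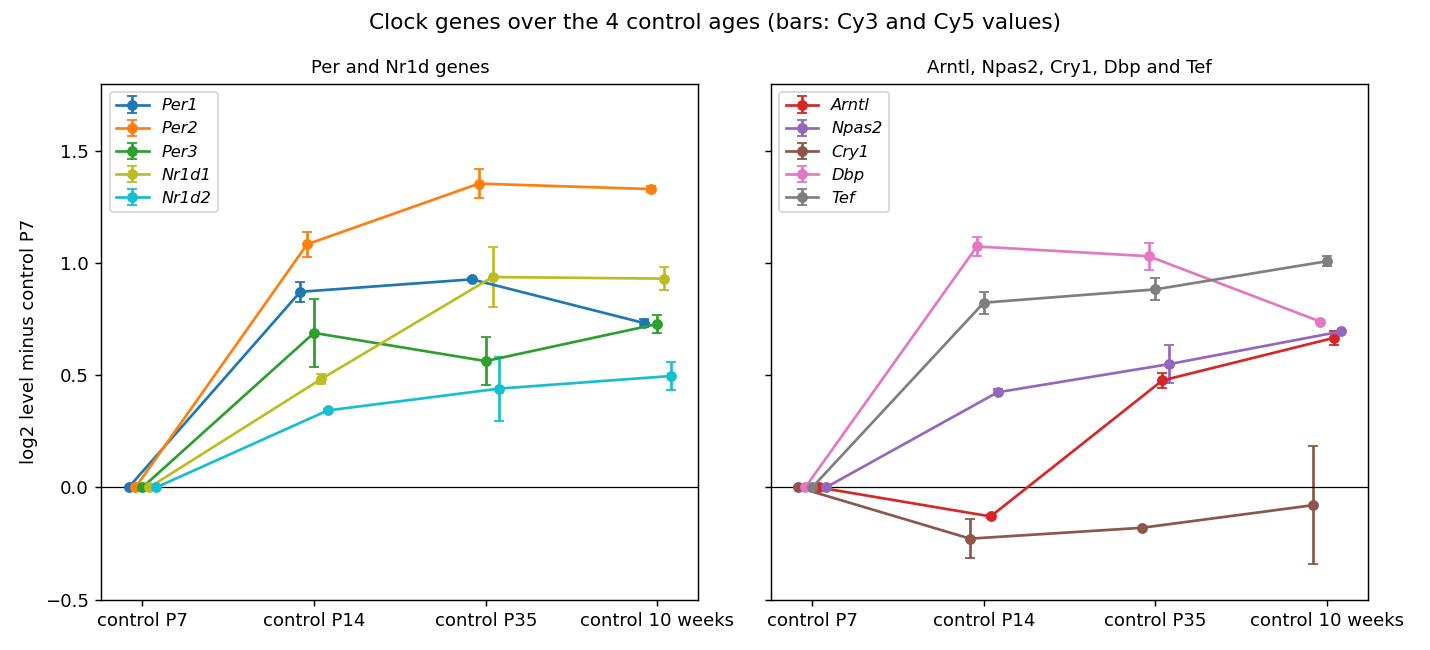
Log2 level of each clock gene minus its level in control P7 (y axis) at the 4 control ages (x axis), with points for the mean of both dyes and bars reaching to the Cy3 and Cy5 values. Per2, Dbp, Per1 and Tef stand 0.82 to 1.08 above P7 at P14, whereas Arntl lies at -0.13 at P14 and first stands above P7 at P35.

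From P14 to P35 none of the 10 members was called, beside 2.34% of 15747 genes called higher and 6.14% lower. Arntl came nearest, with 0.633 in Cy3 and 0.579 in Cy5 (mean 0.61, 1.52-fold), where the Cy5 value lay just under the limit. The processed signal of the scanner software, median scaling and quantile normalization each put Arntl past it. Nr1d1 differed by 0.46 (SD 0.16) and Per2 by 0.27 (SD 0.01), while Dbp stayed at -0.04 and Tef at 0.06. From P35 to 10 weeks no member was called either, beside 2.52% of 16276 genes in either direction. Dbp and Per1 stood at -0.29 and -0.19 and Arntl at 0.19, each with both dyes on the same side, but with median scaling, which moved the median of all genes to -0.22, Arntl turned to -0.05.

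Arntl encodes the activator shared by all heterodimers of the loop. Its Cy3 and Cy5 levels were 1.68 and 1.77 in control P7, 1.56 and 1.64 in control P14, 2.19 and 2.22 in control P35, and 2.38 and 2.41 in control 10 weeks. They were 1.67 and 1.62 in the NBH pool at 1 week and 2.22 and 2.25 in that at 4 weeks, and 2.20 and 2.25 and then 2.21 and 2.28 in the ABH pools at these times. The 3 pools of 7 or 14 days thus lay between 1.56 and 1.77 and the 5 older pools between 2.19 and 2.41, with no overlap between them on any array. The share of all genes with the same split is not given here. For scale, 34.4% of 15747 genes were above 0 with both dyes from control P14 to control P35. That is the share for this step alone and not for the split over the 8 pools. The range over the 8 pools was 0.80 (1.74-fold), and 4 of the 7 neighbouring pairs in the order of pools were closer than the SD of their dyes, among them all the steps from ABH 4 weeks down to control P35.

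Npas2, the forebrain partner of ARNTL, ran from -2.56 in control P7 to -1.73 in NBH 4 weeks. Apart from P7 its pools covered 0.42, with ABH 1 week lowest at -2.15. As for Arntl, 4 neighbouring pairs were within the dye SD, and the dyes were furthest apart in ABH 4 weeks (SD 0.14).

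Per1 encodes a repressor that is also an early response gene. Its Cy3 and Cy5 levels were 2.95 and 2.89 in control P7, 3.78 and 3.81 in control P14, 3.87 and 3.82 in control P35, and 3.67 and 3.64 in control 10 weeks. They were 3.51 and 3.66 in the NBH pool at 1 week and 3.50 and 3.49 in that at 4 weeks, and 3.24 and 3.26 and then 3.49 and 3.62 in the ABH pools at these times. The 3 controls from P14 onward filled the top 3 ranks, the 4 surgery pools came next and control P7 was lowest, although NBH 1 week (3.59) and control 10 weeks (3.65) were closer than the dye SD.

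Per2, which encodes a repressor needed for a stable rhythm, was at -1.99 and -2.03 in control P7, -0.96 and -0.89 in control P14, -0.70 and -0.61 in control P35, and -0.67 and -0.68 in control 10 weeks. It was at -1.25 and -1.33 in the NBH pool at 1 week and -1.09 and -1.10 in that at 4 weeks, and -1.10 and -1.01 and then -1.23 and -1.03 in the ABH pools at these times. No array of a surgery pool reached the lowest value of the controls from P14 onward, and every surgery array was above control P7. The share of all genes that separate in this way is not given here, and the arrays of a pool are dyes of the same RNA. The order was again 3 controls, 4 surgery pools and control P7, with a range of 1.35 (2.56-fold), the widest of the 10 members.

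Per3, the third Per gene, gave lower values with Cy5 than with Cy3 in all 8 pools, and 6 of its 7 neighbouring pairs were within the dye SD. It was lowest in control P7 (-3.26) and next lowest in ABH 1 week (-2.82), and highest in ABH 4 weeks (-2.35). Cry1, a repressor that acts as the partner of PER proteins, had the narrowest range, from -2.03 in NBH 1 week to -1.60 in ABH 4 weeks. In control 10 weeks its dyes read -2.08 and -1.52, an SD of 0.40 that spans almost that whole range, so its pools could not be ordered.

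Nr1d1 and Nr1d2 encode the nuclear receptors of the second loop. Nr1d1 ran from -0.90 in control P7 to 0.04 in control P35, but its Cy3 and Cy5 values parted to -0.30 and -0.99 at 1 week after NBH and to -0.84 and -0.12 at 4 weeks after ABH. Nr1d2 ran from 0.56 in control P7 to 1.06 in control 10 weeks and covered 0.24 without P7, with 6 of 7 neighbouring pairs within the dye SD.

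Dbp is the classical output gene, a transcription factor of the PAR family. Its Cy3 and Cy5 levels were 3.07 and 3.16 in control P7, 4.19 and 4.19 in control P14, 4.16 and 4.13 in control P35, and 3.82 and 3.89 in control 10 weeks. They were 4.22 and 4.32 in the NBH pool at 1 week and 3.92 and 3.94 in that at 4 weeks, and 3.91 and 3.98 and then 4.04 and 4.08 in the ABH pools at these times. Only 1 of 7 neighbouring pairs in this order was within the dye SD, the fewest of any member, and Dbp covered 0.41 among the 7 pools other than P7. Tef, its relative, was lowest in control P7 (4.44) and highest in ABH 4 weeks (5.69), where its dyes read 5.90 and 5.47.

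**Figure D2:**
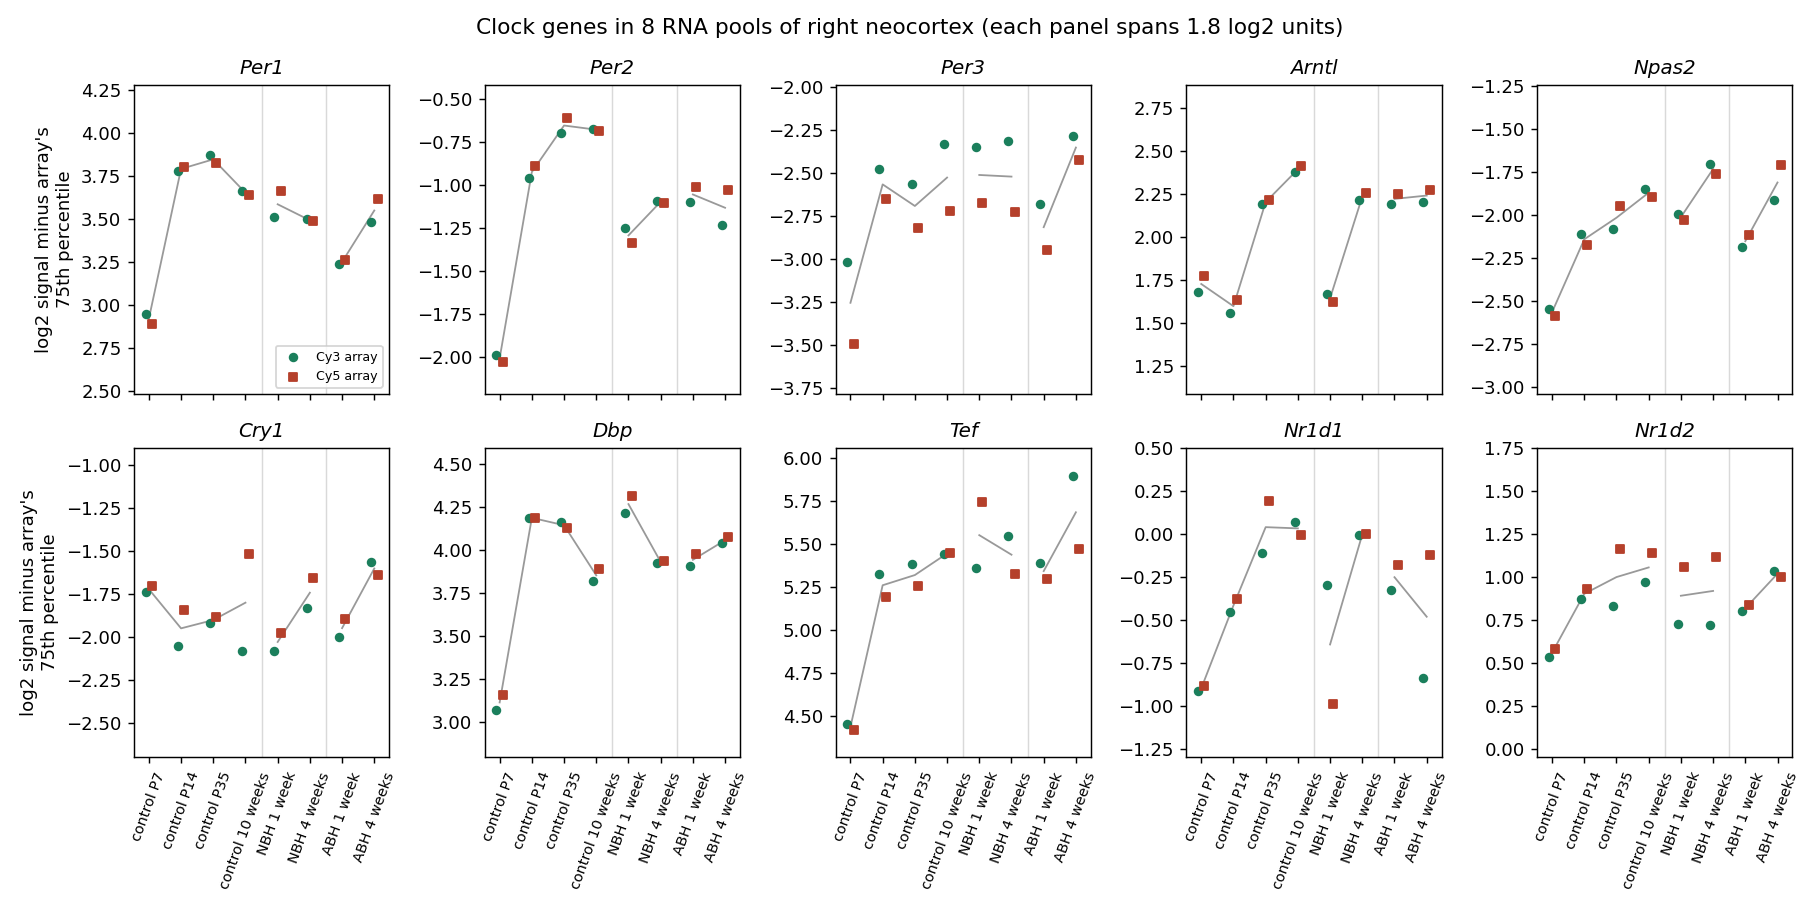
Log2 signal minus the array's 75th percentile (y axis, 1.8 log2 units in every panel) in the 8 pools (x axis) for each clock gene, with a circle for the Cy3 array, a square for the Cy5 array and grey lines joining the means of related pools. For Per2 the 4 surgery pools (-1.29 to -1.05) lie between control P7 (-2.01) and the 3 older controls (-0.92 to -0.65), and for Arntl the 5 pools of 35 days or more lie above the 3 younger ones.

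Hemisuction was the comparison the study was built around, and none of the 10 clock genes was called in any of its 4 comparisons. This stood beside 0.872% of 15489 genes called in either direction 1 week after NBH, 0.924% of 15901 at 4 weeks, 10.5% of 16335 genes 1 week after ABH and 0.644% of 16309 at 4 weeks. The largest mean differences among the members were -0.51 for Nr1d1 in ABH 4 weeks, whose dyes read -0.91 and -0.12, and -0.45 for Per2 in the same pool. Median differences of the 10 members were 0.02, -0.01, -0.26 and 0.01 in the 4 comparisons in that order, beside medians of all genes of 0.07, 0.04, -0.05 and 0.07. With 1 pool a condition, the absence of a call does not show that the levels were the same.

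Per2 was below its control with both dyes in each comparison. The Cy3 and Cy5 differences were -0.29 and -0.45 in the NBH pool at 1 week and -0.39 and -0.50 in that at 4 weeks, and -0.43 and -0.33 and then -0.56 and -0.35 in the ABH pools at these times. The means of -0.37, -0.44, -0.38 and -0.45 correspond to 0.774-fold, 0.735-fold, 0.770-fold and 0.730-fold, and in each comparison 1 dye was past the lower limit of -0.415 and the other short of it. The processed signal of the scanner software put both dyes past it in NBH 1 week (-0.48), NBH 4 weeks (-0.57) and ABH 1 week (-0.51), where it also called 1.18%, 2.37% and 9.94% of all genes lower. Median scaling called Per2 in both NBH pools but brought ABH 1 week to -0.12, where the same scaling put the median of all genes at 0.21, so that relative to the median of all genes Per2 in that pool lay between -0.46 and -0.28 over 12 alternative settings.

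Per1 was also below its control with both dyes in each comparison, at -0.27 and -0.14 in the NBH pool at 1 week and -0.37 and -0.34 in that at 4 weeks, and -0.42 and -0.38 and then -0.18 and -0.03 in the ABH pools at these times. The difference in ABH 4 weeks was about the size of its dye SD (-0.10, SD 0.11), while that in ABH 1 week was the nearest to a call (0.757-fold). The mean was below 0 in all 12 alternative settings that kept the control pool, for Per1 and for Per2 and in each comparison. Several of these settings could not change it. Other call limits, other filters on dim probes and the mean over all probes left both genes at their main values. The settings with 1 dye alone repeat the dye values given above. For scale, 15.3%, 24.7%, 45.8% and 20.8% of all genes were below 0 with both dyes in the 4 comparisons in the order above, and the last 2 share their control pool. These are shares of single comparisons, and the share of genes below 0 in all 4 is not given here.

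No other member lay on 1 side of its control with both dyes in all 4 comparisons. Nr1d1 had means below 0 in each (-0.23, -0.04, -0.28 and -0.51), but its dyes lay on opposite sides in both NBH pools. Arntl stood at 0.05, 0.03, -0.17 and -0.15 in the 4 comparisons, close to the median of all genes in the NBH pools. Npas2 was higher in NBH 1 week (0.13) and NBH 4 weeks (0.28) and lower in ABH 1 week (-0.28) with both dyes, and its dyes disagreed in ABH 4 weeks. Small differences turned with the scaling, since the authors' values without scaling put Npas2 at -0.13 and -0.01, Arntl at -0.15 and -0.21 in the NBH pools and Dbp at -0.08 in NBH 1 week. Dbp was at 0.08, -0.21, 0.09 and 0.20, each with both dyes on 1 side, and all of these are smaller than its step from P7 to P14. Its second probe read -0.01, -0.32, 0.04 and 0.34, with dyes on opposite sides of 0 at 1 week after either surgery. Tef stood at 0.29, 0.12, -0.10 and 0.24, of which the first and last rested on 1 dye (Cy5 0.55 and Cy3 0.46). Per3 was at -0.29 in ABH 1 week and 0.17 in ABH 4 weeks. Nr1d2 also had means below 0 in each, between -0.24 and -0.01, with dyes on opposite sides in NBH 1 week and ABH 4 weeks. Cry1 lay between -0.15 and 0.20 with dyes on opposite sides in both ABH pools.

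**Figure D3:**
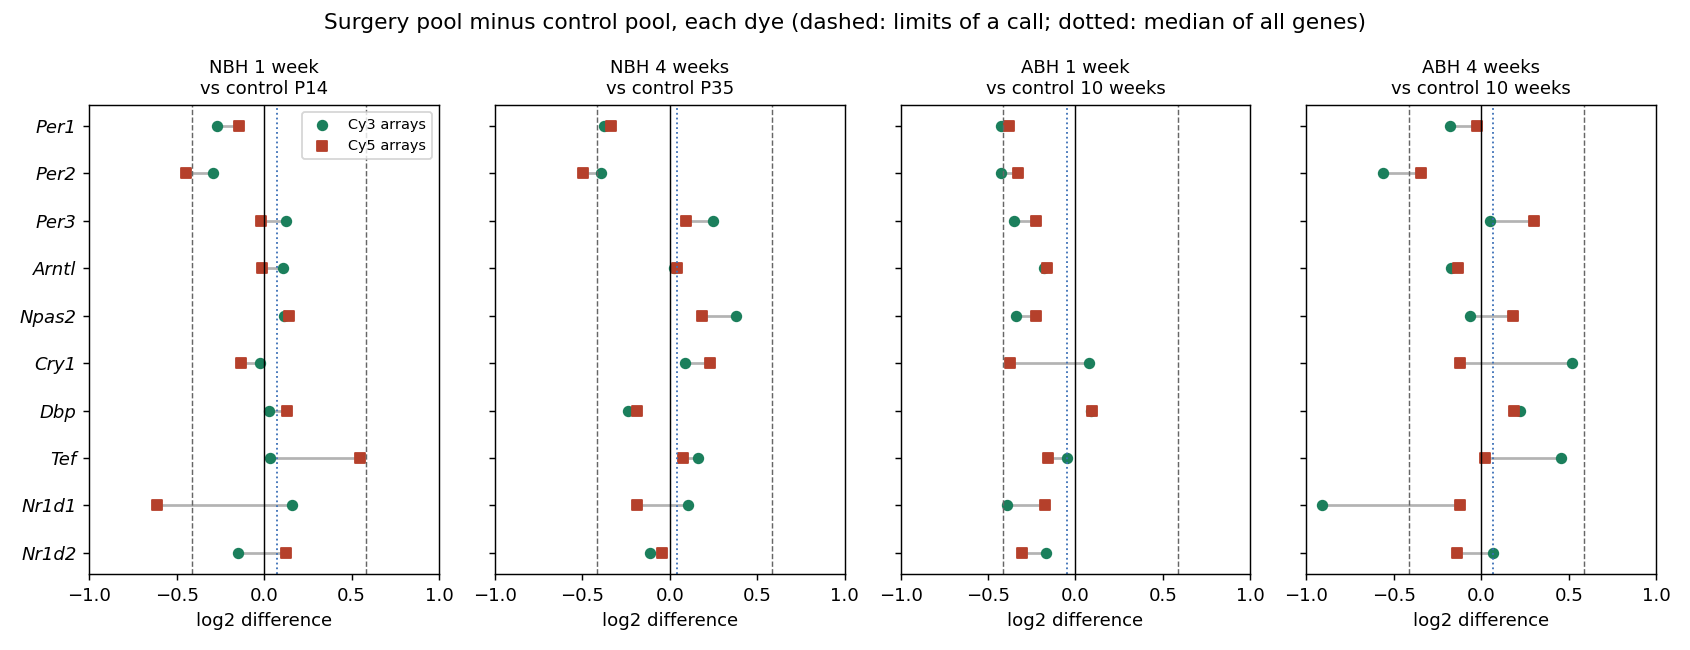
Log2 difference of each surgery pool from its control pool (x axis) for the 10 clock genes (y axis), a circle for the Cy3 arrays and a square for the Cy5 arrays of a comparison, with dashed lines at the limits of a call and a dotted line at the median of all genes. Per2 straddles or touches the lower limit in each panel with 1 dye past it, and the widest gap between dyes is that of Nr1d1 in ABH 4 weeks (-0.91 and -0.12).

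Agreement between dyes shows technical repeatability only, since both dyes read the same pool, and it does not give the spread between animals. The SD of the difference between the Cy3 and Cy5 results over all genes was 0.32, 0.19, 0.23 and 0.31 in the 4 surgery comparisons. For the members the median gap between dyes was 0.14, 0.10, 0.11 and 0.23, and the largest belonged to Nr1d1 in 3 of the comparisons and to Cry1 in ABH 1 week.

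Members were also read by limb of the loop, since the Per, Dbp, Tef and Nr1d genes and the activators Arntl and Npas2 peak at different parts of the day. In ABH 1 week, 6 of the 7 Per, Dbp, Tef and Nr1d genes were below 0 with both dyes and Dbp was above, while both activators were below 0 too, although median scaling put Tef at 0.16, Nr1d2 at 0.02 and Arntl at 0.09. In NBH 1 week the 7 divided into 2 above, 2 below and 3 with dyes apart. In NBH 4 weeks 4 were below and 2 above while both activators were above 0, though Arntl differed by 0.03. In ABH 4 weeks 3 were above, 3 below, and Arntl was below. In no surgery comparison did all 7 lie on 1 side with both activators on the other.

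Between the 2 times after surgery none of the members was called, beside 8.31% of 15791 genes for NBH and 8.56% of 16207 genes for ABH. In NBH, Arntl was higher at 4 weeks than at 1 week (0.59, 1.51-fold, Cy3 0.55 and Cy5 0.63), much as in the controls of the same ages. Nr1d1 gave 0.64 with dyes of 0.29 and 0.99, and Dbp gave -0.34, against -0.04 in the controls from P14 to P35. In ABH, 8 of 10 members were above 0 with both dyes at 4 weeks against 1 week, beside 51.4% of all genes, led by Per3 (0.46, SD 0.09), Cry1 (0.35, SD 0.13), Tef (0.34, SD 0.23) and Npas2 (0.34, SD 0.10), and the median of all genes in that comparison was 0.10.

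Over the 8 pool means 40 of 45 pairs of members had a Pearson r above 0, and the share among pairs of other genes is not given here. Of the 21 pairs among the Per, Dbp, Tef and Nr1d genes all had a Pearson r above 0 (median 0.76, range 0.42 to 0.95). So did all 14 pairs that set one of these genes against Arntl or Npas2 (median 0.64), the lowest being Dbp with Arntl (r = 0.06). Cry1 had the pairs below 0, the lowest with Dbp (-0.48). All 8 pools share the scaling and differ in age, and Spearman's rho was smaller, with medians of 0.40 and 0.32 for the 2 kinds of pair. Some pairs above 0 by r were below 0 by rho. They included Dbp with Arntl (rho = -0.55), Per1 with Arntl (-0.14) and Per2 with Per3 (-0.14).

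Control P7 was the lowest pool for 8 of the 10 members, and the pattern differed without it. Over the other 7 pools 12 of the 21 pairs were above 0 and 9 below (median 0.14), and the 14 pairs with an activator divided into 8 above and 6 below. Dbp ran against Arntl (r = -0.84, rho = -0.86) and against Nr1d1 (-0.66), whereas Per2 ran with Nr1d1 (0.76) and Per3 with Tef (0.76). These correlations are descriptions over 7 pools that differ in age and surgery, with no test, and leaving out P7 was chosen after its values were seen.

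**Figure D4:**
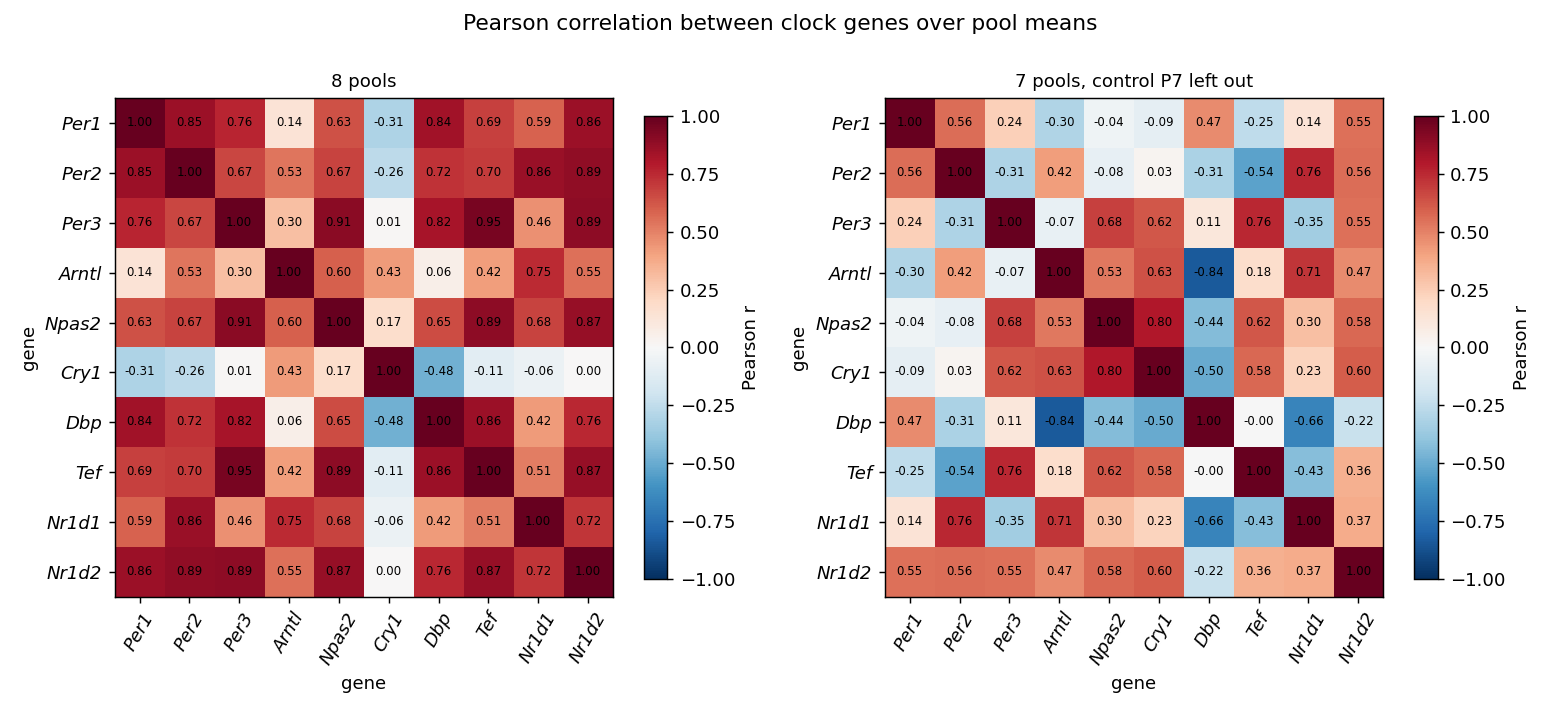
Pearson correlation (colour and printed value, from -1 to 1) between each pair of clock genes over the means of 8 pools (left) and over 7 pools without control P7 (right). On the left the squares outside the Cry1 row and column are all positive, and on the right Dbp with Arntl is at -0.84.

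Among 3178 other genes measured on all arrays with a range of at least 1 log2 unit, those with a pattern among the most like that of Dbp over the 8 pools included Pthlh (r = 0.99), which encodes parathyroid hormone-like peptide, Elovl7 (0.98), a fatty acid elongase, Gad2 (0.98), which makes GABA in interneurons, and Mag (0.98), a myelin gene. Without P7 these 4 kept r between 0.85 and 0.98. Most opposed were Hdac10 (-0.98), Slc9b2 (-0.97), Atic (-0.97), Haus7 (-0.96) and Abracl (-0.95). Their r without P7 lay between -0.85 and -0.68. Both groups were picked by r over the 8 pools, so r without P7 is not a separate check. Mag stood at 0.55 in control P7, 5.04 in control P14 and 4.10 in control 10 weeks, and so had its highest level of these at the same age as Dbp with a far wider range (4.60 against 1.15).

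A wider list of 25 clock, clock-controlled and suprachiasmatic genes that are not members was read in the same way, and all 25 had a probe. In the surgery comparisons 1 was called, Avp in NBH 4 weeks (-1.59, SD 0.13). Avp, the vasopressin gene of hypothalamic neurons, was itself called higher in control P35 than in control P14 (1.81, with P14 well above background on 1 of its 2 arrays) and lower in control 10 weeks than in control P35 (-1.78), and Oxt stood apart in the same control P35 pool as given above. Its levels were -1.48 in control P35, -3.07 in NBH 4 weeks and -3.26 in control 10 weeks. Medians of the list were 0.08, 0.00, -0.09 and 0.11 in the 4 comparisons.

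Bhlhe40, a repressor that competes for E-boxes, gave mean differences of -0.21, -0.30, -0.41 and -0.34 in the fixed order, below 0 with both dyes each time and called in none. It was the lowest of the list in ABH 1 week and in ABH 4 weeks. Ciart, another repressor of the loop, was the lowest in NBH 1 week (-0.31), where Bhlhe41 was the highest (0.44). Clock itself stood at -0.10, -0.09, -0.17 and 0.02. The highest values in the other comparisons were Arntl2 in NBH 4 weeks (0.35), Timeless in ABH 1 week (0.34) and Avp in ABH 4 weeks (0.55).

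From P7 to P14 the wider list held 5 genes called higher and 4 called lower of 23 compared. Higher were Hlf (1.68), the third PAR factor beside Dbp and Tef, Vip (1.04), Ciart (1.01), Wee1 (0.79) and Usp2 (0.78), of which Wee1 and Usp2 are clock-controlled. Lower were Prok2 (-0.86, with P14 well above background on 1 of its 2 arrays), Csnk1e (-0.74), a kinase that acts on PER proteins, Nampt (-0.50) and Timeless (-0.49). From P14 to P35 the ROR receptor gene Rora (0.64) and Bhlhe40 (0.83) were called higher with Avp, of 25 compared, and both were also called higher in NBH 4 weeks than in NBH 1 week (0.61 and 0.74), where Nampt was called lower (-0.49). In ABH 4 weeks against ABH 1 week Avp was called higher (0.64).

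Immediate early genes were read beside Per1 and Per2 because these respond to the same stimuli. Of 12 such genes 5 were called lower in NBH 1 week (Egr2 -0.95, Fos -0.61, Nr4a1 -0.59, Fosb -0.56 and Arc -0.52) and 8 in ABH 1 week, where Egr2 was at -0.95, Egr4 at -0.68, Egr1 at -0.67 and Fosb at -0.66, beside 0.4% and 5.83% of all genes called lower. None was called in NBH 4 weeks or ABH 4 weeks. Medians were -0.28, -0.19, -0.53 and 0.06 in the 4 comparisons. Per1 was lowest in ABH 1 week (-0.40) and nearest to 0 in ABH 4 weeks (-0.10), as was the median of the immediate early list. In NBH, Per1 was lower at 4 weeks (-0.35) than at 1 week (-0.21), while the list median was higher at 4 weeks (-0.19 against -0.28). Per2 in ABH 4 weeks stood at -0.45 with that list at 0.06. The part of the stimuli behind this list in the Per1 and Per2 values was not tested.

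**Figure D5:**
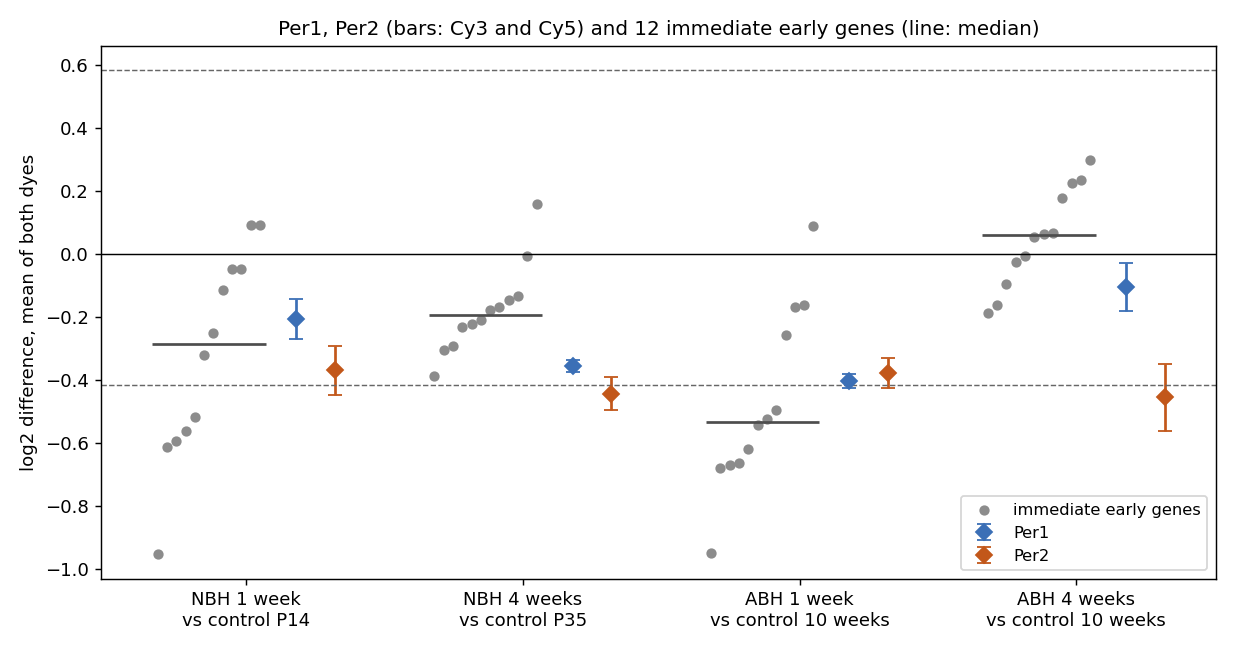
Log2 difference from the control pool, mean of both dyes (y axis), in the 4 surgery comparisons (x axis) for 12 immediate early genes (grey points, a line at their median), Per1 and Per2 (diamonds, bars reaching to the Cy3 and Cy5 values), with dashed lines at the limits of a call. The medians of the grey points are -0.28, -0.19, -0.53 and 0.06, and Per2 lies between -0.45 and -0.37 in all 4 comparisons.

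Glucocorticoid-responsive genes, which also bear on Per1, had medians of 0.09, -0.06, 0.04 and 0.09 over the 12 of 14 genes that no array saturated (Mt1 and Mt2 were left out). Only Lcn2 was called among them, higher in NBH 1 week (0.97) and ABH 1 week (0.80). Fkbp5 stood at 0.04, -0.16, 0.15 and 0.25 and Tsc22d3 at 0.11, -0.06, -0.18 and 0.07. Of 7 temperature-responsive genes with a probe, Hspa8 and Hsp90aa1 were saturated and left out, and the other 5 had medians of 0.05, 0.07, -0.11 and 0.10 with none called in these 4 comparisons. Leaving out saturated genes was chosen after the values were seen.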

How the data were processed

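The authors hybridised each RNA pool to 2 Agilent mouse arrays of 8x60K format, a Cy3 and a Cy5 array, and the deposited scanner files hold spot intensity from Agilent Feature Extraction 11.0.1.1, per the submitters' processing notes. The median signal and median local background of the labelled channel were corrected in limma 3.58.1 under R 4.3.3 (normexp, offset 50, all spots) and taken to log2. Control and outlier spots were then dropped, spots of a probe averaged and each array's 75th percentile subtracted. The authors' value table, also intensity, served as an alternative. Probes were named through their accessions in the RefSeq table of GRCm38.p6 (26582 of 55681 probes, 20145 genes). A gene entered a comparison if well above background on both arrays of a pool. No test between conditions was possible with 1 pool each, and differences are given per dye with the SD of the 2 dyes. The call rule was checked on simulated data. The number of arrays limits the precision. Genes named outside the members were wider list genes that were called or at its extremes, and the 5 most and least like Dbp, of which 1 is not reported here. The members and lists were chosen with earlier results of these data known.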

Additional observations from a re-analysis of the deposited data

Results flagged for a closer look

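Some members lay on opposite sides of 0 with both dyes in 2 surgery comparisons, and none of these differences was tested. Between NBH 1 week and ABH 1 week they were Npas2 (0.13 and -0.28, apart by 0.41) and Tef (0.29 and -0.10, apart by 0.39), while 19.4% of 15326 genes did the same. Between NBH 4 weeks and ABH 4 weeks they were Arntl (0.03 and -0.15, apart by 0.18) and Dbp (-0.21 and 0.20, a difference of -0.42), while 16.8% of 15737 genes did the same. Between NBH 1 week and NBH 4 weeks they were Cry1 (-0.08 and 0.16, a difference of -0.24) and Dbp (0.08 and -0.21, apart by 0.29), while 8.18% of 15289 genes did the same. Between ABH 1 week and ABH 4 weeks, which share the 10 week control, they were Per3 (-0.29 and 0.17, a difference of -0.46) and Tef (-0.10 and 0.24, a difference of -0.34), while 17.5% of 16173 genes did the same.

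The channel that carried no label read well above background for Dbp on 1 of 16 arrays (NBH 4 weeks, Cy5) and for Tef on 1 (ABH 4 weeks, Cy3), where 0.755% to 1.43% of all gene spots did so on an array. These readings were not used.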

How the results depend on the processing

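Of 870 member differences recomputed, 698 stayed within the SD of their dyes, 172 moved by more, and no called value turned its sign. The 698 include values that could not move. Other call limits and other filters on dim probes leave a member's difference as it was, and the mean over all probes could move only Dbp. A call needs both dyes past the limit, so 1 dye alone could not turn a called value. No paired analysis was possible because replicates are dyes of 1 pool and each value already compares arrays of the same dye. The number of members called lower went from 0 to 1 with the processed signal in NBH 1 week, NBH 4 weeks and ABH 1 week (Per2), with median scaling in both NBH pools (Per2), with a normexp offset of 0 in NBH 4 weeks (Per2), and with another control pool in NBH 4 weeks and ABH 4 weeks (Per2) and in ABH 1 week (Per1). In the same order, the processed signal called 1.18%, 2.37% and 9.94% of all genes lower and median scaling 0.904% and 1.09%. The normexp offset of 0 called 1.36% lower, and another control pool 3.27%, 1.07% and 1.76%. The authors' values carry no scaling, and their median of all genes lay -0.20, -0.25, 0.07 and -0.17 from the main one in the 4 surgery comparisons. With them the number of members called lower went to 1, 2, 1 and 2, beside 3.14%, 8.04%, 9.04% and 3.15% of all genes. With 1 dye alone that number was 0 to 2 in NBH 1 week, ABH 1 week and ABH 4 weeks and 0 to 1 in NBH 4 weeks. In that order Cy3 alone called 1.66%, 13.8%, 5.42% and 1.79% of all genes lower, and Cy5 alone 4.23%, 7.91%, 1.33% and 2.31%. From P7 to P14 the 4 calls became 2 with 2-fold limits, 4 to 5 with 1 dye alone, and 5 with the processed signal and with a normexp offset of 0 (Per3 added), while the authors' values called Per3 but not Tef among 4 higher and called 1 lower (Cry1). Of all genes, 2-fold limits called 3% higher, Cy3 alone 10.4%, Cy5 alone 11.8%, the processed signal 10.8% and the normexp offset of 0 9.8%. The authors' values called 6.73% of all genes higher and 30% lower. From P14 to P35 the processed signal, the authors' values, median scaling and quantile normalization each gave 1 (Arntl), and 1 dye alone 0 to 1. In that order 4.34%, 7.63%, 2.84% and 2.49% of all genes were called higher, and 3.36% and 3.55% with Cy3 and Cy5 alone. From P35 to 10 weeks median scaling called 1 lower (Dbp), beside 5.66% of all genes. Leaving out control P7, an alternative added after the data were seen, moved the median r from 0.76 to 0.14 within the Per, Dbp, Tef and Nr1d genes, from 0.64 to 0.24 against the activators and from 0.67 to 0.24 over all pairs. The gap between dyes limited several members, with Per3 having the largest median dye SD (0.21) and Nr1d1 the largest single one (0.51, ABH 4 weeks). The cause of these shifts was not tested.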
